A study of Mus musculus with 13 samples.

Results

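Lrrk2, Park7, Pink1, Vps35, Uchl1, Atp13a2 and Fbxo7 are mouse counterparts of human genes that have been linked to inherited Parkinson disease or parkinsonism. They were chosen by name, as 7 of the 49315 genes counted in each midbrain library, and each symbol matched 1 Ensembl gene of the mouse genome GRCm38. RNA-Seq of whole midbrain was performed in 13 male mice on a C57BL/6J background, aged 8 to 12 weeks, as 1 library per mouse. All mice carried floxed Ripk3 (Ripk3fl/fl) and received tamoxifen (60 mg/kg) on 5 days. Cre+ mice also carried the inducible Aldh1l1-Cre/ERT2 transgene, which is active in astrocytes and deletes Ripk3 there, and Cre- littermates lacked it. Mice were then injected once daily for 5 days with MPTP (20 mg/kg) or saline, and midbrains were taken 3 days later after perfusion. Saline was given to 3 Cre- and 3 Cre+ mice, and MPTP to 3 Cre- and 4 Cre+ mice. The deletion concerns astrocytes alone, so Ripk3 from all other cells remained in the tissue that was sequenced.

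MPTP is a toxin that astrocytes convert to MPP+, which enters dopaminergic neurons through the dopamine transporter and blocks mitochondrial complex I. The 7 genes act at several points of the upkeep of mitochondria, endosomes and lysosomes. PINK1 is a kinase that accumulates on damaged mitochondria and marks them for mitophagy, and FBXO7 is an F-box protein of a ubiquitin ligase that takes part in the same process. DJ-1, the product of Park7, is a redox-sensitive protein that protects cells against oxidative stress. VPS35 is the core subunit of retromer, which returns cargo from endosomes, and LRRK2 is a kinase that phosphorylates Rab GTPases on such membranes. ATP13A2 is a lysosomal P5B ATPase that exports polyamines, and UCHL1 is a ubiquitin hydrolase that is abundant in neurons.

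The libraries held between 11489150 and 29397278 counts assigned to genes, with a median of 24907639. Cre- MPTP replicate 1 stood apart from the rest. It had the lowest total, 21101 genes with at least 1 count against 25432 to 27186 elsewhere, and 1.12% of its counts on mitochondrial genes against 3.55% to 6.06%. Its level differed more than 2-fold from the median of the other 12 libraries in 48.6% of the 19360 genes tested, and this share was 2.01% to 5.73% in the others. Each result that rests on it is therefore given with and without it. Ripk3 had 4 to 40 counts in the Cre- libraries and 4 to 19 in the Cre+ libraries, so these ranges overlapped and the gene gave no check of the genotype labels. The dopaminergic marker Th was detected in every library, at 31.9 to 53.6 counts per 1000000 counts (CPM), and all 10 dopaminergic markers had counts, as the midbrain label states. These markers did not move together in Cre- MPTP replicate 1. Slc6a3, Slc18a2, Ddc, Aldh1a1 and Nr4a2 had their lowest CPM of all libraries there. Pitx3, En1, Foxa1 and Foxa2 had their highest.

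The genes differed widely in level. In the 6 Saline libraries, expressed as reads per kilobase of exon and per 1000000 counts (RPKM, here CPM divided by the deposited gene length in kilobases), Uchl1 was the highest at 371 ± 34.2 (SD, n = 6). Pink1 followed at 212 ± 19.4, Park7 at 62.1 ± 8.01 and Atp13a2 at 43.9 ± 4.68 RPKM. Vps35 reached 16.4 ± 1.24, Fbxo7 10.7 ± 0.35 and Lrrk2 2.07 ± 0.157 RPKM. No pair of neighbours in this order overlapped over the 6 libraries, and the smallest step, from Park7 to Atp13a2, was 1.42-fold. Among all genes tested, the RPKM of Uchl1 was above that of 99.7%, Pink1 above 99.4% and Lrrk2 above 39.1%. The same order held within each of 12 libraries. Cre- MPTP replicate 1 was the exception, where Atp13a2 stood above Park7 and Fbxo7 above Vps35.

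**Figure D1:**
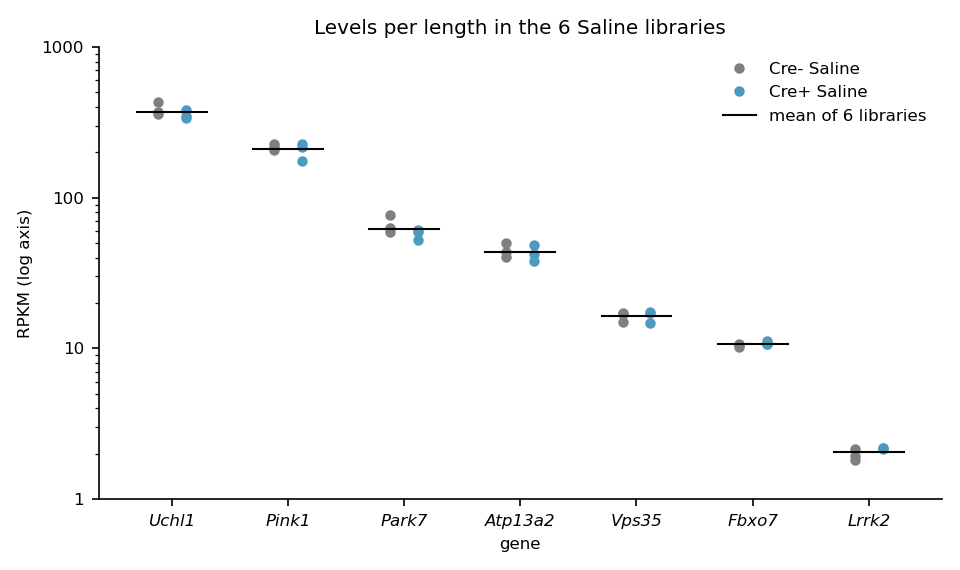
RPKM (log axis) of the 7 genes in the 3 Cre- Saline and 3 Cre+ Saline libraries, 1 point per mouse, with the mean of the 6 libraries as a line. The genes run from Uchl1 at 371 to Lrrk2 at 2.07 RPKM without overlap between neighbours.

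All 7 genes are annotated as protein coding, and their bounds in the reference annotation (GENCODE M21) were the same as in the deposited tables. Of these, 3 lie on chromosome 4: Park7 (ENSMUSG00000028964, chr4:150897133-150914437, minus strand), Pink1 (ENSMUSG00000028756, chr4:138313409-138326307, minus strand) and Atp13a2 (ENSMUSG00000036622, chr4:140986873-141007330, plus strand). Lrrk2 (ENSMUSG00000036273) lies at chr15:91673175-91816120 on the plus strand, and Vps35 (ENSMUSG00000031696) at chr8:85260392-85299802 on the minus strand. Uchl1 (ENSMUSG00000029223) lies at chr5:66676091-66687234 and Fbxo7 (ENSMUSG00000001786) at chr10:86021972-86051873, both on the plus strand. Exons of 3 members are shared with a gene on the opposite strand. The antisense gene Uchl1os covers 295 exonic bases of Uchl1 and had 10 to 35 counts, A230060F14Rik covers 314 bases of Fbxo7 and had 20 to 113 counts, and Orc6 covers 171 bases of Vps35. The strand setting of the counting was not given in the sources used here, so reads in these shared bases cannot be assigned with certainty.

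The 7 transcripts differ in base composition. Their values in Cre- MPTP replicate 1 mostly ran with it, though Park7 lay slightly below Fbxo7, whose GC content is lower. The GC content of the longest transcript was 62.5% for Atp13a2, 59.0% for Pink1, 56.8% for Uchl1, 52.9% for Park7, 46.5% for Fbxo7, 45.5% for Lrrk2 and 37.8% for Vps35. To show this difference, 1 stretch of 60 coding bases is given for 4 of the genes, from GRCm38 and the exons of GENCODE M21, each the stretch within 1 exon whose GC content was closest to that of the whole coding sequence. G and C are in capitals, and each runs 5′ to 3′ on the strand of its gene.
Atp13a2, exon 2 of 29, chr4:140992159-140992218, plus strand, 37 G or C bases: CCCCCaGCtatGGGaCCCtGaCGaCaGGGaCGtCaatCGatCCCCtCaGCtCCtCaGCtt
Pink1, exon 2 of 8, chr4:138320947-138321006, minus strand, 37 G or C bases: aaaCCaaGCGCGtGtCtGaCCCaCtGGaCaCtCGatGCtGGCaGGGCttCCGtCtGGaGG
Park7, exon 3 of 8, chr4:150908348-150908407, minus strand, 32 G or C bases: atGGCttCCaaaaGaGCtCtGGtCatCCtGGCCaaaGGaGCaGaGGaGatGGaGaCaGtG
Vps35, exon 2 of 17, chr8:85294867-85294926, minus strand, 25 G or C bases: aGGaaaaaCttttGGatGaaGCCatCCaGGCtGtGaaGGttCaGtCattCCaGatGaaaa

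The 3 members richest in G and C were far above the other libraries in Cre- MPTP replicate 1, and the 2 poorest were far below. On the log2 CPM scale the difference of this library from the median of the other 12 was 2.09 for Atp13a2, 2.02 for Pink1 and 1.76 for Uchl1. The difference was -0.28 for Park7, -0.25 for Fbxo7, -1.12 for Lrrk2 and -1.60 for Vps35. Measured in the same way, no other library departed by more than 0.40 for any member. The members were not alone in this. When 14232 genes with a mean log2 CPM over 1 were split by transcript GC content into 10 groups of equal size, the median difference in this library went from -1.09 in the group poorest in GC to 1.54 in the richest, while the medians of the other libraries stayed between -0.20 and 0.18. Of all genes tested, 21.8% were more than 2-fold higher in this library and 26.9% more than 2-fold lower. What brought this about was not tested.

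**Figure D2:**
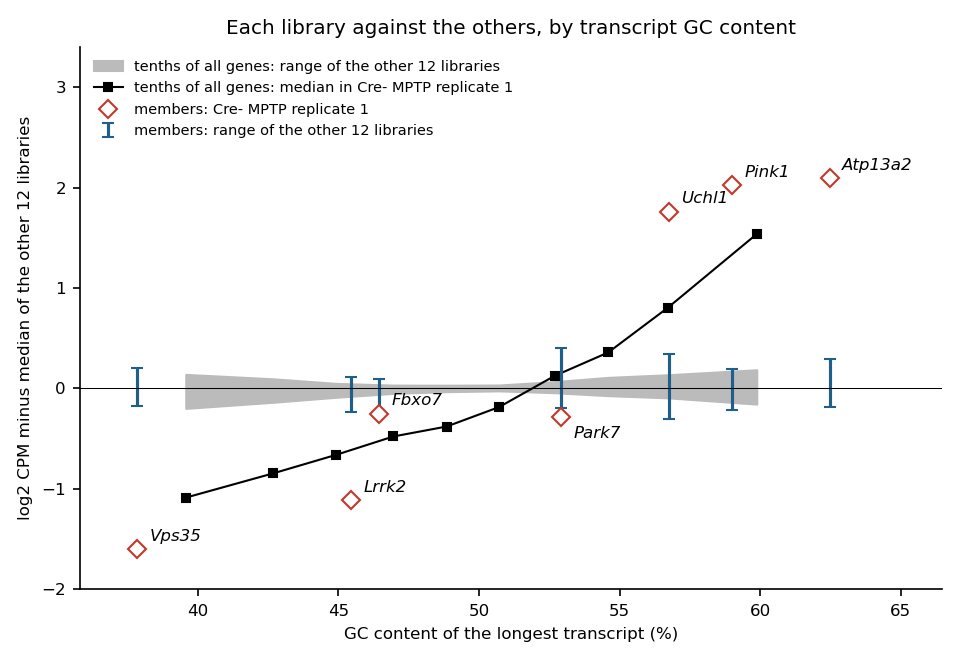
Difference in log2 CPM between a library and the median of the other 12 (vertical) against the GC content of the longest transcript in percent (horizontal). Diamonds are the 7 genes in Cre- MPTP replicate 1, blue bars their range in the other 12 libraries, squares the medians of 10 groups of genes by GC content in that library, and the grey band the range of those medians in the other 12; Vps35 lies at -1.60 and Atp13a2 at 2.09.

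The first comparison asked whether the genes differed between MPTP and saline in mice with intact Ripk3. None of the 7 members passed an adjusted p of 0.05 with edgeR's quasi-likelihood test, where 616 of 19360 genes (3.18%) did. At an unadjusted p under 0.05 there was 1 member with edgeR, 3 with DESeq2 and 2 with limma voom, and the latter tools also called 0 members after adjustment. Without Cre- MPTP replicate 1 the count of members stayed at 0, and 1812 of 19311 genes (9.38%) were called. The median half-width of the 95% interval of a member's log2 fold change was 0.67 with all libraries and 0.23 without that library.

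Among the genes of mitochondrial quality control, Pink1 had 608, 581 and 558 CPM in the Cre- Saline libraries and 2156, 478 and 531 CPM in the Cre- MPTP libraries. The first MPTP value lay above every other library of the study, and the other two lay below all 3 Cre- Saline values. With that library left out, the groups did not overlap in 40.0% of all genes tested, so such an arrangement was common. The log2 fold change of Pink1 was 0.86 (SE 0.44, adjusted p by edgeR = 0.368) with all libraries, and without Cre- MPTP replicate 1 it was -0.20 (SE 0.11, adjusted p by edgeR = 0.264). Removal of each library's trend on GC content, an alternative chosen after the values of this library were seen, gave 0.27 (SE 0.18).

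Fbxo7 had 62.8, 65.7 and 65.2 CPM in Cre- Saline and 55.1, 62.2 and 54.8 CPM in Cre- MPTP. Its groups did not overlap, as in 15.1% of all genes tested (40.0% without Cre- MPTP replicate 1), with all MPTP values below the saline values. Replicate 2 came close to the lowest saline library. For Fbxo7 the log2 fold change was -0.17 (SE 0.11, adjusted p by edgeR = 0.455), and it was -0.14 (SE 0.081) without Cre- MPTP replicate 1 and -0.04 (SE 0.12) with the GC trend removed.

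Park7 had 190, 157 and 147 CPM in Cre- Saline and 121, 129 and 141 CPM in Cre- MPTP. This was the other member whose groups did not overlap, and all 3 MPTP values were lower. Non-overlap between these groups was seen in 15.1% of all genes tested, or 40.0% without Cre- MPTP replicate 1. For Park7 the log2 fold change was -0.34 (SE 0.14, adjusted p by edgeR = 0.287), and it was -0.28 (SE 0.12, adjusted p = 0.17) without Cre- MPTP replicate 1 and -0.34 (SE 0.14) with the GC trend removed. Its direction was the same in these fits, and it passed the test in none of them.

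Of the endosomal and lysosomal genes, Vps35 had 153, 150 and 133 CPM in Cre- Saline and 47.8, 147 and 143 CPM in Cre- MPTP. Apart from Cre- MPTP replicate 1 the groups overlapped. For Vps35 the log2 fold change was -0.36 (SE 0.31, adjusted p by edgeR = 0.576) with all libraries and 0.0020 (SE 0.11) without that library. With the GC trend removed it was -0.26 (SE 0.12, adjusted p by edgeR = 0.276). Lrrk2 had 25.5, 22.7 and 21.5 CPM in Cre- Saline and 11.7, 23.7 and 24.9 CPM in Cre- MPTP, from 108 to 753 counts. It showed the same arrangement, with log2 fold changes of -0.20 (SE 0.22, adjusted p by edgeR = 0.682) and 0.07 (SE 0.11), and -0.12 (SE 0.14) with the GC trend removed. Atp13a2 had 243, 262 and 301 CPM in Cre- Saline and 1046, 238 and 246 CPM in Cre- MPTP. The fold change on the log2 scale was 0.92 (SE 0.44, adjusted p by edgeR = 0.346) with all libraries, 0.14 (SE 0.096) with the GC trend removed and -0.15 (SE 0.11) without Cre- MPTP replicate 1.

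Uchl1 had 709, 588 and 600 CPM in Cre- Saline and 1895, 521 and 580 CPM in Cre- MPTP. As for Pink1, one MPTP library was above all others and the remaining pair lay below the saline libraries, which is again read against the 40.0% of all genes. The log2 fold change of Uchl1 was 0.66 (SE 0.37, adjusted p by edgeR = 0.412) with all libraries and -0.20 (SE 0.10, adjusted p by edgeR = 0.256) without Cre- MPTP replicate 1. With the GC trend removed it was 0.29 (SE 0.20), so its direction differed between these treatments of the library. In whole tissue, fewer cells of a type and less RNA per cell cannot be told apart. The summed CPM of 10 dopaminergic markers was 363 in Cre- MPTP replicate 1, 563 to 616 in the other Cre- MPTP libraries and 499 to 580 in Cre- Saline. The summed CPM of 8 neuronal markers was 3622 in Cre- MPTP replicate 1, 5752 to 6148 in the other Cre- MPTP libraries and 5761 to 6237 in Cre- Saline. For the 7 oligodendrocyte markers it was 9409 to 12058 in Cre- MPTP and 12705 to 17497 in Cre- Saline, and for the 7 astrocyte markers 5208 to 5732 and 3679 to 4301, with no marker of these lists at 0. The astrocyte markers did not move together: Gfap and Aldh1l1 were called higher, and the median log2 fold change of the 7 was -0.26, or 0.04 without Cre- MPTP replicate 1. The part of cell composition in the values of the members was not tested.

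**Figure D3:**
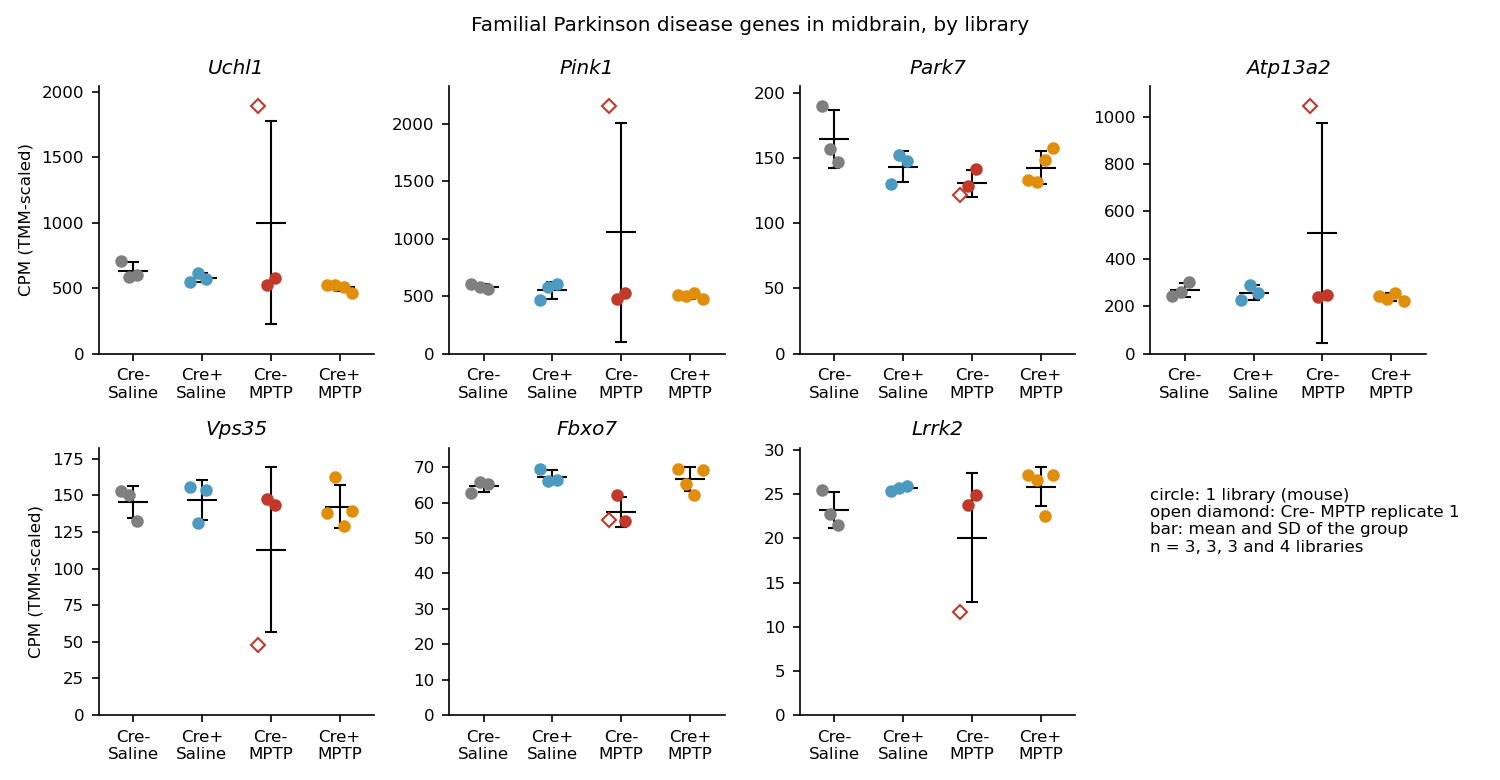
CPM of the 7 genes in each library by group, with the vertical axis from 0; circles are mice, the open diamond is Cre- MPTP replicate 1, and the horizontal bar with whiskers is the mean ± SD of 3, 3, 3 and 4 libraries. The diamond stands above all other points for Uchl1, Pink1 and Atp13a2 and below them for Vps35 and Lrrk2.

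In mice without astrocytic Ripk3, the 7 genes lay close to their saline levels after MPTP. No member was called, with 0 at an unadjusted p under 0.05 by edgeR, DESeq2 or limma voom. Over all genes edgeR called 0 of 19360 (0%), with 672 at an unadjusted p under 0.05, while DESeq2 called 83 and limma voom 294. The log2 fold changes of the members ran from -0.20 to 0.01, with 95% intervals that reached from -1.01 to 0.77. Without Cre- MPTP replicate 1, which is not part of this comparison but widens the shared estimate of the spread, the fold changes stayed between -0.20 and 0.01 and the intervals narrowed to -0.38 to 0.21. In that fit 32 genes (0.166%) were called, none of them a member, and 1 member had an unadjusted p under 0.05.

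That member was Uchl1. It had 549, 620 and 572 CPM in Cre+ Saline and 524, 527, 508 and 466 CPM in Cre+ MPTP, so all 4 treated libraries lay below the 3 controls. It was the only member whose groups did not overlap here, which was the case for 9.66% of all genes tested. The log2 fold change of Uchl1 was -0.20 (SE 0.35, adjusted p by edgeR = 1.00) with all libraries and -0.20 (SE 0.084, adjusted p by edgeR = 0.523) without Cre- MPTP replicate 1, near the value in Cre- mice without the same library. The neuronal markers summed to 6108 to 6548 CPM in Cre+ Saline and 5329 to 6284 CPM in Cre+ MPTP. The oligodendrocyte markers were lower with MPTP here too, at 15333 to 17179 and 11306.5 to 14670 CPM. For the astrocyte markers the sums were 4073 to 4459 and 4025 to 4543 CPM. The part of these cells in the level of Uchl1 was not tested. Cre+ MPTP replicate 4, in which Uchl1 was lowest, also held 6334 CPM of 6 striated muscle markers against 11.7 to 147 CPM in the other libraries. Without replicate 4 the lowest fold change among the members in this comparison was -0.16.

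Pink1 had 468, 579 and 606 CPM in Cre+ Saline and 506, 499, 531 and 472 CPM in Cre+ MPTP. For Atp13a2 the values were 227, 290 and 255 CPM and 244, 228, 257 and 220 CPM. Both groups overlapped for either gene. Park7 had 130, 152 and 148 CPM in Cre+ Saline and 133, 131, 148 and 158 CPM in Cre+ MPTP, with a log2 fold change of -0.0061 (SE 0.13), and the interaction term between the genotypes was 0.33 (SE 0.19, adjusted p by edgeR = 0.795). Vps35 ranged over 131 to 155 CPM in Cre+ Saline and 129 to 163 CPM in Cre+ MPTP. Fbxo7 ranged over 66.0 to 69.5 and 62.3 to 69.4 CPM. Lrrk2 had 25.4, 25.7 and 25.9 CPM in Cre+ Saline and 27.1, 26.6, 22.6 and 27.1 CPM in Cre+ MPTP.

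The comparison of genotypes under MPTP gave the largest fold changes, and these shrank without the library described above. None of the 7 members passed the adjusted threshold with edgeR, DESeq2 or limma voom, where 299 of 19360 genes (1.54%) did with edgeR, and 3 members with edgeR, 4 with DESeq2 and 1 with limma voom had an unadjusted p under 0.05. Cre+ against Cre-, the log2 fold change was -1.10 (SE 0.41, adjusted p by edgeR = 0.202) for Atp13a2, -1.07 (SE 0.40, adjusted p by edgeR = 0.206) for Pink1 and -0.98 (SE 0.35, adjusted p by edgeR = 0.195) for Uchl1. Without Cre- MPTP replicate 1 these values were -0.03 (SE 0.11), -0.01 (SE 0.10) and -0.13 (SE 0.095). Without Cre- MPTP replicate 2 instead, which leaves the deviating library as 1 of 2, all 3 were called, at -1.42 for Atp13a2, -1.40 for Pink1 and -1.27 for Uchl1. These calls rest on 1 library. With the GC trend removed, the values were -0.12 (SE 0.090) for Atp13a2, -0.35 (SE 0.16) for Pink1 and -0.52 (SE 0.19) for Uchl1.

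Lrrk2 and Vps35 pointed the other way, at 0.35 (SE 0.21) and 0.33 (SE 0.29) with all libraries, and were at 0.09 (SE 0.10) and -0.04 (SE 0.10) without Cre- MPTP replicate 1. Park7 was at 0.13 (SE 0.13) and 0.08 (SE 0.12). Fbxo7 had 69.4, 65.3, 62.3 and 69.2 CPM in Cre+ MPTP, all above the Cre- MPTP values, the highest of which was 62.2 CPM. It was the only member whose groups did not overlap, as 11.3% of all genes tested did not (21.9% without Cre- MPTP replicate 1), and on the log2 scale it was higher by 0.21 (SE 0.10, adjusted p by edgeR = 0.274), or 0.18 (SE 0.077, adjusted p by edgeR = 0.333) without Cre- MPTP replicate 1 and 0.05 (SE 0.11) with the GC trend removed. Without that library 614 of 19311 genes (3.18%) were called and again 0 members.

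**Figure D4:**
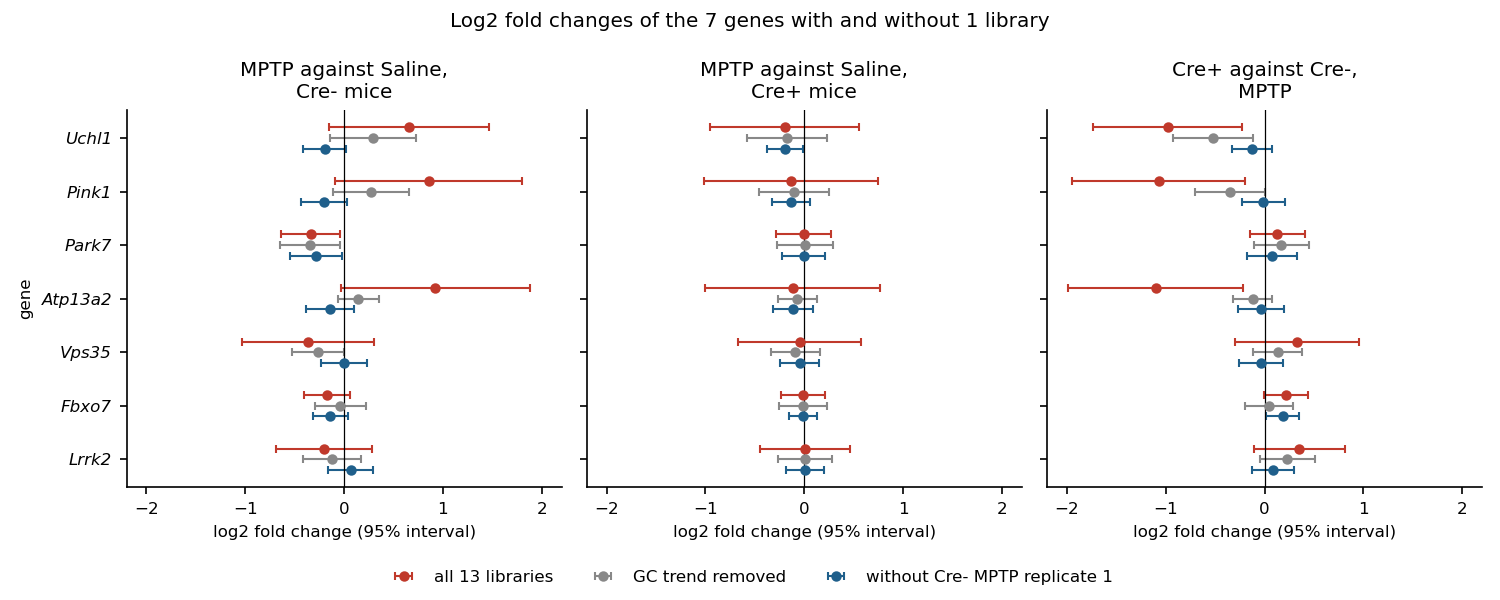
Log2 fold changes of the 7 genes with 95% intervals in 3 comparisons, from all 13 libraries (red), with the GC trend of each library removed (grey) and without Cre- MPTP replicate 1 (blue). In the Cre- MPTP comparisons the points of Uchl1, Pink1 and Atp13a2 move from 0.66 or more in size (red) to between -0.20 and -0.01 (blue), and the intervals narrow.

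With saline, the genotypes differed little in these genes. No member was called and 0 had an unadjusted p under 0.05 with edgeR or DESeq2 and 1 with limma voom. Over all genes edgeR called 0 (0%), with 176 at an unadjusted p under 0.05, DESeq2 called 2 and limma voom 3, and edgeR again called 0 (0%) without Cre- MPTP replicate 1. Log2 fold changes of the members, Cre+ against Cre-, ran from -0.20 for Park7 to 0.14 for Lrrk2. Fbxo7 was the only member whose groups did not overlap, with 69.5, 66.0 and 66.3 CPM in Cre+ Saline above 62.8 to 65.7 CPM in Cre- Saline, and non-overlap was seen in 11.6% of all genes tested. Its log2 fold change was 0.06 (SE 0.11). Fbxo7 thus lay above the Cre- libraries in both treatments, by less than the standard error in saline.

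The difference between the MPTP effects of the genotypes was tested by the interaction. It called 0 of 7 members and 2 of 19360 genes (0.0103%), and no member had an unadjusted p under 0.05 with edgeR, DESeq2 or limma voom. The largest interaction terms on the log2 scale were -1.04 (SE 0.60) for Atp13a2, -0.99 (SE 0.59) for Pink1 and -0.86 (SE 0.51) for Uchl1. Without Cre- MPTP replicate 1 these were 0.03, 0.07 and 0.0015, and the largest term was that of Park7, at 0.28 (SE 0.16, adjusted p by edgeR = 0.515). In that fit 199 genes (1.03%) had a called interaction. All the comparisons with Cre- MPTP and with either saline group share libraries, so their values for a gene are not independent of each other.

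Genes that work with the members were taken from 7 further lists, and all of their genes were tested. These lists were chosen with earlier results of these data known, so the counts per list are a description. Of 17 other genes of inherited parkinsonism, 2 rose with MPTP in Cre- mice and 0 fell, with a median log2 fold change of 0.04 against 0.03 over all genes, of which 2.23% rose and 0.956% fell. Slc39a14, a transporter of manganese and zinc, had 29.2 to 36.0 CPM in Cre- Saline and 51.5, 107 and 79.5 CPM in Cre- MPTP. All MPTP values were higher, where 15.1% of all genes tested did not overlap (40.0% without Cre- MPTP replicate 1). The log2 fold change was 1.27 (SE 0.25, adjusted p by edgeR = 0.0132). It was 1.5 (SE 0.18, adjusted p by edgeR = 2.2e-04) without Cre- MPTP replicate 1. The interaction term of Slc39a14 was -0.88 (SE 0.33, adjusted p by edgeR = 0.706) with all libraries, and at -1.12 (SE 0.24, adjusted p by edgeR = 0.0459) it passed without that library. Likewise its difference between the genotypes under MPTP was -0.86 (SE 0.23, adjusted p by edgeR = 0.0999) with all libraries and -1.09 (SE 0.17, adjusted p by edgeR = 0.0032) without it. In Cre+ mice Slc39a14 had 34.7, 33.6 and 32.5 CPM with saline and 37.9, 58.1, 34.5 and 44.8 CPM with MPTP, with a log2 fold change of 0.38 (SE 0.23, adjusted p by edgeR = 1.00). The call in Cre- mice was lost without Cre- Saline replicate 1 or 2 (adjusted p by edgeR = 0.0767 and 0.0711) and with the compared groups alone (0.194).

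Rab32, a small GTPase of lysosome-related organelles that binds LRRK2, was the other. Rab32 had 2.38, 2.03 and 1.68 CPM in Cre- Saline and 13.4, 3.60 and 6.24 CPM in Cre- MPTP, from 46 to 189 counts in these libraries. The log2 fold change was 1.91 (SE 0.39, adjusted p by edgeR = 0.0165), and it was 1.28 (SE 0.26, adjusted p by edgeR = 0.00655) without Cre- MPTP replicate 1. In Cre+ MPTP it had 2.73, 2.52, 2.04 and 2.79 CPM, all below the Cre- MPTP libraries. Non-overlap here was seen in 11.3% of all genes tested, or 21.9% without Cre- MPTP replicate 1. The log2 fold change between the genotypes was -1.60 (SE 0.35, adjusted p by edgeR = 0.0432), or -0.97 (SE 0.24, adjusted p by edgeR = 0.0433) without Cre- MPTP replicate 1. With all libraries, Rab32 was the only gene of the 7 lists called in that comparison. Rab32 had 1.30, 1.30 and 1.45 CPM in Cre+ Saline, all below the Cre+ MPTP libraries. Such non-overlap was seen in 9.66% of all genes tested. With MPTP in Cre+ mice its log2 fold change was 0.90 (SE 0.37), or 0.90 (SE 0.23) without Cre- MPTP replicate 1, and was not called. The interaction term of Rab32 was -1.01 (SE 0.53, adjusted p by edgeR = 0.795), or -0.38 (SE 0.35, adjusted p by edgeR = 0.712) without that library. Between the genotypes in saline Rab32 was at -0.59 (SE 0.39), or -0.59 (SE 0.25, adjusted p by edgeR = 0.772) without that library, and was not called. All Cre+ Saline values lay below the 1.68 to 2.38 CPM of Cre- Saline, and non-overlap between these groups was seen in 11.6% of all genes tested. The call in Cre- mice was lost without Cre- Saline replicate 1, 2 or 3 (adjusted p by edgeR = 0.0548, 0.0806 and 0.0855) and in a fit of the compared groups alone (0.26). The call between the genotypes was lost without any single Cre+ MPTP library (0.0865 to 0.143) or any single saline library (0.0654 to 0.0713), with the compared groups alone (0.361) and with the replicate block (0.142).

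Among 35 genes of P5B ATPases, polyamine enzymes and lysosomes, the setting of Atp13a2, 1 rose with MPTP in Cre- mice and 0 fell, with a median log2 fold change of 0.04. This count of 1 in 35 was near the share of all genes that rose, 2.23%. The gene was Smox, which encodes the spermine oxidase that breaks down the polyamine substrate of ATP13A2. Smox had 80.2, 83.8 and 88.8 CPM in Cre- Saline and 384, 134 and 143 CPM in Cre- MPTP, and all MPTP values were higher. These groups did not overlap in 15.1% of all genes tested, or in 40.0% without Cre- MPTP replicate 1. On the log2 scale the fold change was 1.38 (SE 0.32, adjusted p by edgeR = 0.0321) with all libraries and 0.72 (SE 0.082, adjusted p by edgeR = 1.5e-04) without Cre- MPTP replicate 1. In Cre+ MPTP the 4 values of Smox ran from 98.5 to 106 CPM, below all Cre- MPTP libraries. Non-overlap here was seen in 11.3% of all genes tested, or 21.9% without Cre- MPTP replicate 1. The Cre+ Saline values, 83.2, 87.5 and 97.1 CPM, all lay below the Cre+ MPTP libraries, where 9.66% of all genes tested did not overlap. With MPTP in Cre+ mice the log2 fold change of Smox was 0.18 (SE 0.29). Without Cre- MPTP replicate 1 it was 0.18 (SE 0.070, adjusted p by edgeR = 0.469), and neither fit called it. With all libraries neither the fold change of Smox between the genotypes, -1.12 (SE 0.29, adjusted p by edgeR = 0.0901), nor its interaction term, -1.20 (SE 0.42, adjusted p by edgeR = 0.622), passed. Without Cre- MPTP replicate 1 they were -0.45 (SE 0.077, adjusted p by edgeR = 0.0054) and -0.54 (SE 0.11, adjusted p by edgeR = 0.0336), and both passed. The call in Cre- mice was lost without Cre- Saline replicate 1, 2 or 3 (adjusted p by edgeR = 0.132, 0.128 and 0.0993) or without Cre+ MPTP replicate 3 (0.0508), with the compared groups alone (0.412) and with the replicate block (0.101).

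Neutrophil markers moved with the same groups. The summed CPM of 6 neutrophil markers was 0.119 to 1.06 in Cre- Saline, 8.75 to 56.8 in Cre- MPTP, 0.325 to 2.86 in Cre+ Saline and 0.534 to 3.52 in Cre+ MPTP. Of the 4 that passed the filter on counts, S100a8, S100a9 and Retnlg rose with MPTP in Cre- mice and were lower in Cre+ than in Cre- mice under MPTP. Without Cre- MPTP replicate 1, 3 were tested, and Retnlg was not among them. In that fit S100a8, S100a9 and Ngp rose in Cre- mice, and S100a8 and S100a9 were lower in Cre+ mice. A gene can pass the filter through the 3 Cre- MPTP libraries alone, so these calls only describe the groups. For the 6 endothelial markers the sum was 247 to 274 CPM in Cre- Saline and 267 to 430 CPM in Cre- MPTP, and for the 7 microglial markers 246 to 293 and 195 to 359 CPM. Both highest sums were those of Cre- MPTP replicate 1, and without it the Cre- MPTP ranges were 267 to 281 and 195 to 317 CPM. With MPTP in Cre- mice Tek was called lower, at an endothelial median log2 fold change of 0.41. P2ry12 was called lower at a microglial median of -0.12. Without that library Ly6c1, another endothelial marker, was called higher. The part of these cells in the values of Rab32, Slc39a14 and Smox was not tested.

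**Figure D5:**
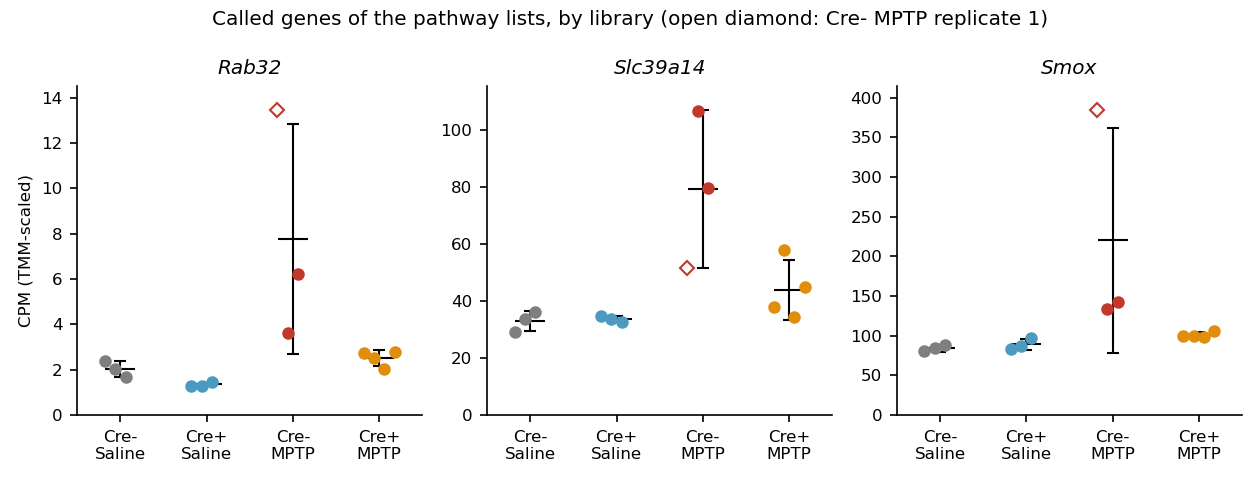
CPM of Rab32, Slc39a14 and Smox in each library by group, with the vertical axis from 0; circles are mice, the open diamond is Cre- MPTP replicate 1, and bars are the mean ± SD. All 3 Cre- MPTP libraries lie above all 3 Cre- Saline libraries for each gene. These groups did not overlap in 15.1% of all genes tested, or in 40.0% without Cre- MPTP replicate 1.

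The other 5 lists held no called gene in any comparison with all libraries, and their median log2 fold changes with MPTP in Cre- mice lay between -0.03 and 0.13. Of 29 PINK1 mitophagy partners, the smallest adjusted p values belonged to Parl, the rhomboid protease that cleaves PINK1, at -1.26 (SE 0.43, adjusted p by edgeR = 0.192) between the genotypes under MPTP, and to Tomm20, a receptor of mitochondrial import, at -0.49 (SE 0.18). Of 19 genes of retromer, sorting nexins and the WASH complex, the partners of VPS35, they belonged to Snx1, at 0.46 (SE 0.15, adjusted p by edgeR = 0.164) with MPTP in Cre- mice, and Snx3, at -0.87 (SE 0.41) between the genotypes under MPTP. Of 20 Rab substrates and effectors of LRRK2, Rab5a was at -0.77 (SE 0.30) and Rab3a at -0.61 (SE 0.25) in the latter comparison. Of 15 genes of ubiquitin hydrolases, ubiquitin and ubiquitin ligase partners, Adrm1, a ubiquitin receptor of the proteasome, was at -1.31 (SE 0.46) between the genotypes under MPTP. Of 16 redox partners of DJ-1, the superoxide dismutases Sod2 and Sod1 were at 0.83 (SE 0.26) with MPTP in Cre- mice and at -1.09 (SE 0.37) between the genotypes under MPTP, respectively. The values between the genotypes without Cre- MPTP replicate 1 were -0.10 for Parl, -0.19 for Tomm20, -0.09 for Rab5a, -0.06 for Rab3a, -0.02 for Adrm1 and -0.15 for Sod1, and Snx3 turned direction, to 0.22. With MPTP in Cre- mice, Snx1 was then at 0.25 and Sod2 at 0.35.

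Without that library more genes of these lists passed in the MPTP comparison of Cre- mice. Of the retromer, sorting nexin and WASH genes 3 rose and 1 fell, of the P5B ATPase, polyamine and lysosome genes 5 rose and 1 fell, and of the other parkinsonism genes 3 rose and 1 fell, where 1812 of 19311 genes (5.14% up, 4.25% down) did. The mitophagy and ubiquitin lists had 0 up and 1 down each, and the Rab and DJ-1 lists had 0. Chosen after their values were seen, Ctsl, a lysosomal protease, was at 0.71 (SE 0.11, adjusted p by edgeR = 0.00168) and Washc2, a WASH complex subunit that binds VPS35, at 0.55 (SE 0.10, adjusted p by edgeR = 0.00362). Both were lower in Cre+ than in Cre- mice under MPTP, at -0.68 (SE 0.11) and -0.47 (SE 0.095). No gene of the 7 lists was called with MPTP in Cre+ mice in this fit.

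The genes whose levels over the 13 libraries were most like each member were also taken, by Pearson's correlation of log2 CPM, as a description. For Pink1 they were Abhd12, Chmp4b and Tprgl (r = 0.995 to 0.996), for Uchl1 Ino80b, Ap2s1 and Eid2 (0.993 to 0.996), and for Atp13a2 6330403L08Rik, Ano8 and Lrp3 (0.995 to 0.996). For Vps35 they were Ranbp6, Ube2n and Ccdc25 (r = 0.994 each), and for Lrrk2 Tnks2, Rock2 and Uba6 (0.978 to 0.980). The points share Cre- MPTP replicate 1, and over the other 12 libraries r was 0.907 to 0.932 for the Pink1 genes, 0.917 to 0.962 for those of Uchl1, 0.901 to 0.922 for those of Atp13a2, 0.886 to 0.893 for those of Vps35 and 0.775 to 0.793 for those of Lrrk2. The genes most like Park7 were Nfu1, Eif3k and Polr2c, with r of 0.906 to 0.927 over 13 and 0.891 to 0.929 over 12 libraries. Those most like Fbxo7 were Gm45650, Pkp4 and Gm13403, with 0.908 to 0.940 and 0.871 to 0.909.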

How the data were processed

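The authors trimmed the reads with Trimmomatic (0.36), aligned them to GRCm38 with STAR (2.5.2b) and assigned uniquely mapped reads to genes with featureCounts of Subread (1.5.2), per the labels. The deposited values are raw counts of 49315 genes in each of 13 libraries, with no normalization, and the authors tested them with DESeq2. Libraries were prepared with a stranded total RNA kit. No per-sample column was left unused (0).

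Counts were tested with edgeR 4.0.16 in R 4.3.3: genes were kept if 3 or more libraries had 10 or more counts (19360), libraries were scaled by TMM, the 13 libraries were fitted with 1 term per group, and the quasi-likelihood test was applied to 5 contrasts. P-values were adjusted over all genes by the Benjamini-Hochberg method, and a gene was called at an adjusted p under 0.05. All 7 members passed the filter. CPM are counts per 1000000 of the TMM-scaled total, log2 CPM used a prior count of 2, and RPKM divide CPM by the deposited exonic length. Standard errors are the log2 fold change divided by the root of F. GC content is that of the longest GENCODE M21 transcript, known for 19294 of the genes tested, and the trend on it was removed as an offset per library.

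Alternatives were DESeq2 1.42.0, limma 3.58.1 voom with quality weights, DESeq2 size factors, the compared groups alone, other count filters, a replicate block, removal of a gene length or GC trend, and each library left out. The fits were tested on simulated data first. Named were all 7 members, up to 5 called genes per list and comparison or else the 2 with the smallest adjusted p, and the 3 genes most like each member. A gene that this rule names is not reported here. The members and lists were chosen with earlier results of these data known. For same-numbered mice of different groups, the correlation of their deviations from the group means was over 0.1 in 3 of 18 pairs, and at most 0.18. Differently numbered mice were not compared, so these values cannot decide whether the numbers pair the mice. The p-values measure the spread between mice.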

Additional observations from a re-analysis of the deposited data

Results flagged for a closer look

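Among the 4 Cre+ MPTP libraries, Lrrk2 had 27.1, 26.6, 22.6 and 27.1 CPM. Replicate 3, at 22.6 CPM from 509 counts, was separated from its nearest neighbour by 0.878 of the whole range of the group, above Dixon's 95% critical value for 4 samples. It lay within the 21.5 to 25.5 CPM of the Cre- Saline libraries. Chance flags about 1 in 20 groups, and the lowest and highest values of 7 genes were examined.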

How the results depend on the processing

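The count of members called stayed at 0 in each of the 5 comparisons under every alternative run except 1. Without single libraries it ranged from 0 to 3 between the genotypes under MPTP, with 3 only without Cre- MPTP replicate 2. With the replicate number as a replicate block it was 0 in each comparison. Whether these numbers pair the mice could not be told.

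The log2 fold changes that turned direction did so mostly with the treatment of Cre- MPTP replicate 1, the cause of whose deviation was not tested. With MPTP in Cre- mice, the values over fits that left out 1 library ranged from -0.38 to 0.066 for Lrrk2, from -0.20 to 1.18 for Pink1, from -0.59 to 0.0020 for Vps35, from -0.20 to 0.94 for Uchl1 and from -0.15 to 1.25 for Atp13a2. Between the genotypes under MPTP, Vps35 ranged from -0.035 to 0.56. For the interaction, the ranges were -0.055 to 0.39 for Lrrk2, -1.32 to 0.069 for Pink1, -0.048 to 0.54 for Vps35, -1.15 to 0.0015 for Uchl1 and -1.37 to 0.030 for Atp13a2. Limma voom with quality weights gave 0.096 for Lrrk2, -0.16 for Pink1, -0.088 for Uchl1 and -0.11 for Atp13a2 with MPTP in Cre- mice, -0.036 for Vps35 between the genotypes, and interaction terms of -0.088 for Lrrk2, 0.029 for Pink1, -0.035 for Vps35 and 0.020 for Atp13a2. Without both Cre- MPTP replicate 1 and Cre+ MPTP replicate 4, MPTP in Cre- mice gave 0.078 for Lrrk2, -0.19 for Pink1, 0.013 for Vps35, -0.19 for Uchl1 and -0.14 for Atp13a2. The genotypes under MPTP then differed by 0.016 for Pink1, -0.025 for Vps35 and 0.0019 for Atp13a2, and the interaction terms were -0.086 for Lrrk2, 0.092 for Pink1, -0.044 for Vps35, 0.033 for Uchl1 and 0.060 for Atp13a2. Park7 and Fbxo7 kept their direction in these comparisons under each alternative.

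With Cre- MPTP replicate 1 the group of 3 had wide intervals, and without it the group held 2 mice. Gene calls over the whole table also moved with the tool: with MPTP in Cre- mice edgeR called 616 genes, DESeq2 1137 and limma voom 2624, and between the genotypes under MPTP 299, 834 and 1224. The replicate block gave 428 and 0. Counts of Lrrk2 (108 in the lowest library) and Rab32 (32) limit the precision of both.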
